A study of Mus musculus with 9 samples.

Results

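The organic anion transporters described here are 8 genes of the SLC22 and SLCO families, Slc22a6, Slc22a7, Slc22a8, Slc22a12, Slc22a13, Slc22a30, Slco1a1 and Slco4c1, taken by name from the 32427 genes counted in mouse kidney single-cell RNA libraries. All 8 were counted in all 9 libraries. Each library came from the kidney of 1 male C57BL/6 mouse, 3 per group, and the mice were 6 weeks old at the start. Control mice were injected with saline. AKI-CKD mice were injected with cisplatin, a platinum drug that injures the tubule, at 8 mg/kg, 4 times at weekly intervals. AKI-CKD + EGT mice were given the same cisplatin and also ergothioneine (EGT), a diet-derived antioxidant, at 0.5 mg/mL in the drinking water from before the first injection. Kidneys of all groups were taken after 8 weeks. The question asked of these genes was how they were distributed along the proximal tubule, and whether their levels differed after cisplatin and with EGT.

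The proximal tubule secretes organic anions in a pair of steps. Uptake carriers of the basolateral membrane bring drugs, toxins and metabolites from the blood into the cell, driven by exchange for dicarboxylates, and carriers and pumps of the apical membrane release them into the tubular fluid. Slc22a6 (OAT1) and Slc22a8 (OAT3) are the main basolateral carriers, and Slc22a7 (OAT2) also takes up organic anions and nucleotides. Slc22a12 (URAT1) and Slc22a13 (OAT10) are apical exchangers that reabsorb urate, the second of them also nicotinate. Slco1a1 (OATP1A1) is an apical carrier of conjugated steroids and bile acids, and Slco4c1 (OATP4C1) carries cardiac glycosides and thyroid hormone. Slc22a30 belongs to a group of SLC22 genes of rodents.

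The libraries held 70106161 to 101525691 UMIs (unique molecular identifiers, 1 per captured RNA molecule), and 196925 of 216680 barcodes were kept as cells, with a median of 2714 UMIs. Of 98290 cell names, which are serial numbers, 62337 occurred in at least 2 libraries, and cells were kept apart by library. AKI-CKD + EGT mouse 3 stood apart from the other libraries, with 17255 of 23876 barcodes kept, the highest median share of mitochondrial UMIs (7.64%), 9976 PT cells, a scaling factor of 1.21 in PT cells by TMM (the scaling between libraries used in edgeR) and correlations with the other libraries of 0.977 to 0.990. Clustering left 161029 cells (81.8%) in 12 proximal tubule (PT) clusters. Of these, 4 clusters with 63525 cells had at least 3 raised markers of the first segment (Slc5a2, Slc5a12, Slc2a2, Slc6a19 and others) and are called S1-like PT. Another 4 with 54817 cells had at least 3 raised markers of the last segment (Slc7a13, Acsm3, Napsa and others) and are called S3-like PT. The larger ones, of 27552, 15217 and 11863 cells, had 3, 7 and 6 of the 10 S3 markers raised. A raised segment marker was at least 1.5-fold the median PT cluster. No markers of the middle segment were used, so its cells were not set apart. The remaining 4, with 42687 cells, met neither rule. The 8 genes were no markers and were kept out of the variable genes used for clustering. Since segments were cut from the same cells, levels are compared between them as a description, with no test. Levels are given in CPM, the UMIs of the gene per 1000000 UMIs of all genes in that population of that mouse. In S3-like PT of the Control mice, the S1 markers summed to 5460 to 6033 CPM and the S3 markers to 1657 to 3506 CPM.

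Slc22a8 and Slc22a6 are neighbours on chromosome 19, on the same strand, with starts 24.8 kb apart in GRCm38.p6, and 7 of the 8 genes had a promoter in the RefSeq table of that build. The 250 bases before each start are shown because this pair of adjacent genes had different distributions along the tubule, given further on. They are written 5′ to 3′ on the strand of the gene, with no letters marked, for Slc22a6 at chr19:8617746-8617995 (plus strand) and for Slc22a8 at chr19:8592932-8593181 (plus strand).
Slc22a6: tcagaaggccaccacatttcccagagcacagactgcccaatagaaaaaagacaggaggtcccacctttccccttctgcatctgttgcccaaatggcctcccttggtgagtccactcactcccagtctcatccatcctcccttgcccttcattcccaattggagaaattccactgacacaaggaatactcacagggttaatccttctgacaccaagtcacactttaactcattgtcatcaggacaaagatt
Slc22a8: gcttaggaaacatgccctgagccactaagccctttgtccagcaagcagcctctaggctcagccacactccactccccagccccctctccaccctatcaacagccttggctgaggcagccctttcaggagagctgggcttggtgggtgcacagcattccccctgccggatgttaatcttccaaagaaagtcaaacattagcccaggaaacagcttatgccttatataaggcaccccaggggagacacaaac
The sequences given next were searched on both strands of 32851 promoters of the same length. The HNF4 sequence CAAAGTCCA (0.384% of promoters) was in none of the 7. The NRF2 sequence TGACNNNGC (10.2%) and the androgen receptor half-site AGAACA (16.1%) were in that of Slco4c1 alone, and the TATA sequence TATAAA (12.4%) in that of Slco1a1 alone. Its 2 matches in Slco1a1 were on the opposite strand (TTTATA), the first of them 209 bases before the start. The Slc22a8 promoter holds the similar letters tatataa near its start, which the exact search does not count. These are letter matches in a short window and describe no binding.

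RNA of most of these transporters was also counted in cells that do not belong to the tubule. In 10203 endothelial, stromal, podocyte, macrophage, T and B cells, called non-tubular cells here, Slc22a6 stood at 744 CPM over all mice, against 1367 CPM in PT cells. Per mouse, the non-tubular level was 42.6% to 62.0% of the PT level for Slc22a6, with a median of 54.6%. The medians were 59.9% for Slc22a8, 59.2% for Slc22a12, 54.2% for Slc22a30, 52.3% for Slco1a1, 65.8% for Slc22a7 and 65.3% for Slc22a13. For Slco4c1 the median was 282% over the 8 mice with a UMI in PT cells. A level in a PT population was therefore read against the non-tubular level of the same mouse, and a level at or below it was read as background. This reference is a choice, since levels outside the PT differed by cell type. Slc22a6 was at 510 CPM in principal cells and 524 CPM in intercalated cells, which are tubule cells outside the PT, and at 1011 CPM in podocytes.

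The proportions of Slc22a12, Slc22a8 and Slc22a30 to Slc22a6 were alike in 8 cell types outside the PT, while those of the sparse genes varied more, that of Slco4c1 from 0% in T and B cells to 0.496% in stromal cells. Slc22a12 UMIs were 50.01% to 54.6% of Slc22a6 UMIs in loop of Henle (LOH), distal convoluted tubule (DCT), endothelial, stromal, podocyte, macrophage, T and B cells. Slc22a8 UMIs were 29.9% to 38.2% of them and Slc22a30 UMIs 5.00% to 5.81%. In S1-like PT the same values were 61.1%, 56.1% and 8.53%, and in S3-like PT they were 41.7%, 19.6% and 3.87%. For these 3 genes the types outside the PT thus lay between both segments. No doublet caller was run, and the part of doublets in these levels was not tested.

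**Figure D1:**
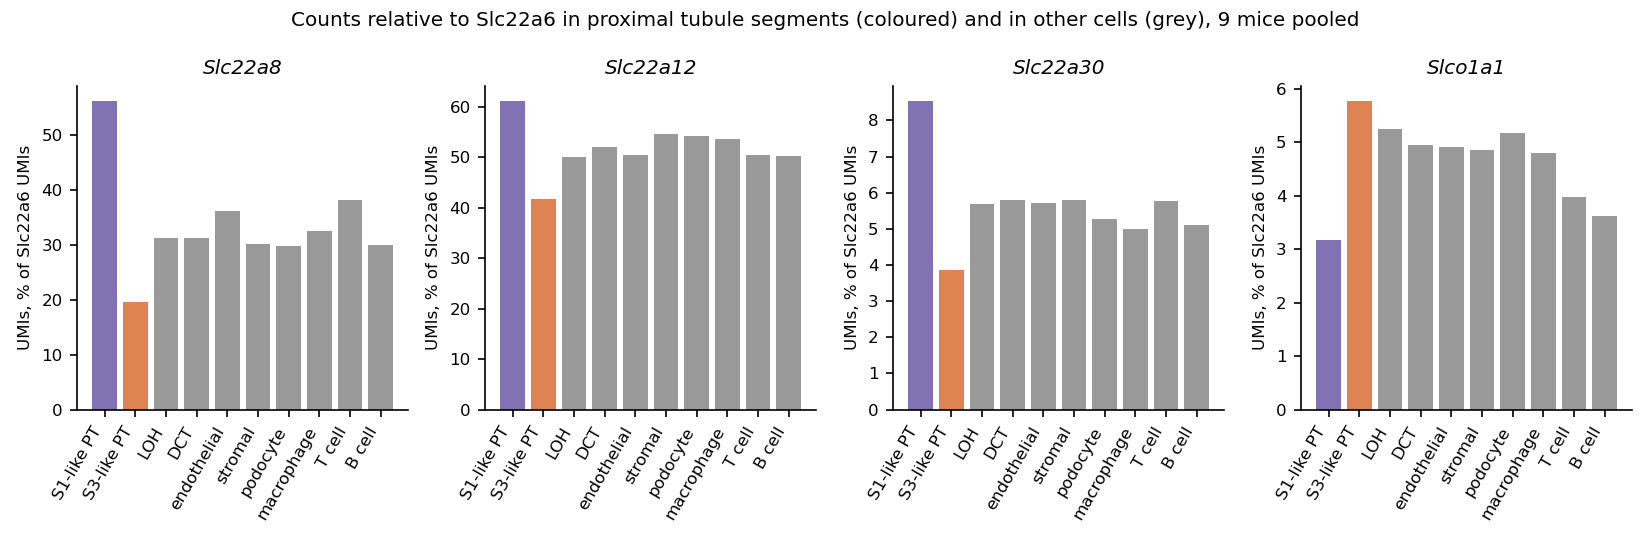
UMIs of 4 transporters as a percentage of Slc22a6 UMIs (y axis) in each cell population (x axis), all 9 mice pooled; coloured bars are the PT segments and grey bars other cell types. For Slc22a8 the S1-like bar is at 56.1%, the S3-like bar at 19.6%, and the grey bars at 29.9% to 38.2%.

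Among the basolateral carriers, Slc22a6 was concentrated in S3-like PT. Its level there was 2159, 1934 and 1994 CPM in the Control mice, 2273, 1591 and 2269 CPM in the AKI-CKD mice and 2366, 2976 and 2548 CPM in the AKI-CKD + EGT mice. In S1-like PT it was 755, 711 and 862 CPM in the Control mice, 694, 433 and 919 CPM in the AKI-CKD mice and 835, 1027 and 973 CPM in AKI-CKD + EGT. S3-like PT was above S1-like PT in 9 of 9 mice, by a median of 2.84 fold (range 2.31 to 3.68), and the ranges of the segments did not overlap. The non-tubular level was 75.6% to 112% of the S1-like level, so little of the S1-like level stood above that reference. Over all mice the S1-like level was 789 CPM, above the 510 and 524 CPM of principal and intercalated cells. The S1-like clusters were unlike each other. The largest ones, of 23588 and 23296 cells with 7 S1 markers raised in each, were at 465 and 547 CPM, below the non-tubular level, and those of 12429 and 4212 cells, with 6 and 3 S1 markers raised, were at 1259 and 1493 CPM. The fold between segments depends on this mix. Of all Slc22a6 UMIs, 52.7% lay in S3-like PT, which held 29.9% of all UMIs.

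Slc22a8 had similar levels in both segments. It was 443 CPM in S1-like PT and 436 CPM in S3-like PT over all mice, and S3-like PT was higher in 5 of 9 mice, with a median of 1.02 fold (0.893 to 1.13). The non-tubular level was 51.2% to 65.9% of the S1-like level and 45.4% to 65.6% of the S3-like level, so that the gene stood above background in both segments of all 9 mice. Over the 11 PT clusters of at least 1000 cells, it ranged from 246 to 539 CPM, and Slc22a6 from 418 to 2474 CPM.

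Slc22a7, a carrier of organic anions and nucleotides, was counted sparsely, with 5520 UMIs in PT cells. In S3-like PT it was at 13.3, 18.4 and 38.6 CPM in the Control mice, 11.8, 5.28 and 15.2 CPM in the AKI-CKD mice and 11.7, 24.3 and 10.9 CPM in AKI-CKD + EGT. S3-like PT exceeded S1-like PT in 9 of 9 mice, with a median of 6.43 fold (3.16 to 7.86). In S1-like PT the gene was at 2.94 CPM, below the 5.89 CPM of non-tubular cells, and 65.0% of its UMIs lay in S3-like PT.

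The apical urate exchanger Slc22a12 was also higher in S3-like than in S1-like PT, by a smaller median fold than Slc22a6. It was at 861 to 987 CPM in S3-like PT and at 384 to 532 CPM in S1-like PT, and the S3-like level was 1.80 to 2.24 fold the S1-like level in the 9 mice (median 1.90). Non-tubular cells had 57.9% to 98.3% of its S1-like level (median 82.8%) and 29.1% to 48.3% of its S3-like level, so this fold depends on background. The largest S1-like clusters were at 387 and 399 CPM of Slc22a12. Its spread between mice was small, with a coefficient of variation of 6.14% over the PT levels of the 9 mice, against 20.2% for Slc22a6. Slc22a13 was rare, at 3.40 to 12.8 CPM in S3-like PT and 1.12 to 2.70 CPM in S1-like PT. The non-tubular level was 51.6% to 332% of the S1-like level, and S1-like PT exceeded it in 3 of 9 mice. S3-like PT exceeded it in 9 of 9 mice and was a median of 3.35 fold (1.26 to 6.18) above S1-like PT.

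Slc22a30 was above background in both segments of all 9 mice, at 67.3 CPM in S1-like PT and 86.0 CPM in S3-like PT against 40.1 CPM in non-tubular cells. The largest S1-like clusters were at 34.4 and 42.3 CPM, near the non-tubular level. S3-like PT was higher in 8 of 9 mice (median 1.33 fold, 0.955 to 1.48). Its highest level was in an S1-like cluster, at 143 CPM, whereas Slc22a6, Slc22a12 and Slco1a1 were highest in the same S3-like cluster of 11863 cells. Slc22a30 and Slc22a13 have close relatives among the genes counted (Slc22a26 to Slc22a29 and Slc22a13b), and how reads shared between copies were assigned is not given in the sources used here.

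Slco1a1 had a larger median fold between segments than Slc22a6, Slc22a8, Slc22a12 and Slc22a30 and a smaller one than Slc22a7. Over all mice the S1-like level was 0.71 of the non-tubular level for Slco1a1, 0.50 for Slc22a7 and 1.06 for Slc22a6. These folds therefore do not rank the genes by how steeply they differed along the tubule. The S3-like level of Slco1a1 was 97.8, 171 and 222 CPM in the Control mice, 82.2, 26.5 and 54.6 CPM in the AKI-CKD mice and 65.3, 190 and 197 CPM in AKI-CKD + EGT. The S1-like level was 24.99, 38.8 and 45.9 CPM, then 11.8, 3.18 and 7.57 CPM, then 12.4, 38.3 and 56.7 CPM in the same order. S3-like PT was higher in 9 of 9 mice, by a median of 4.95 fold (3.48 to 8.32). Non-tubular cells had 97.5% to 273% of the S1-like level, and S1-like PT exceeded them in 1 of 9 mice, so Slco1a1 in S1-like PT was at background in the other 8. By cluster it was at 10.2 CPM in both of the largest S1-like clusters and at 65.6 CPM in that of 12429 cells.

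**Figure D2:**
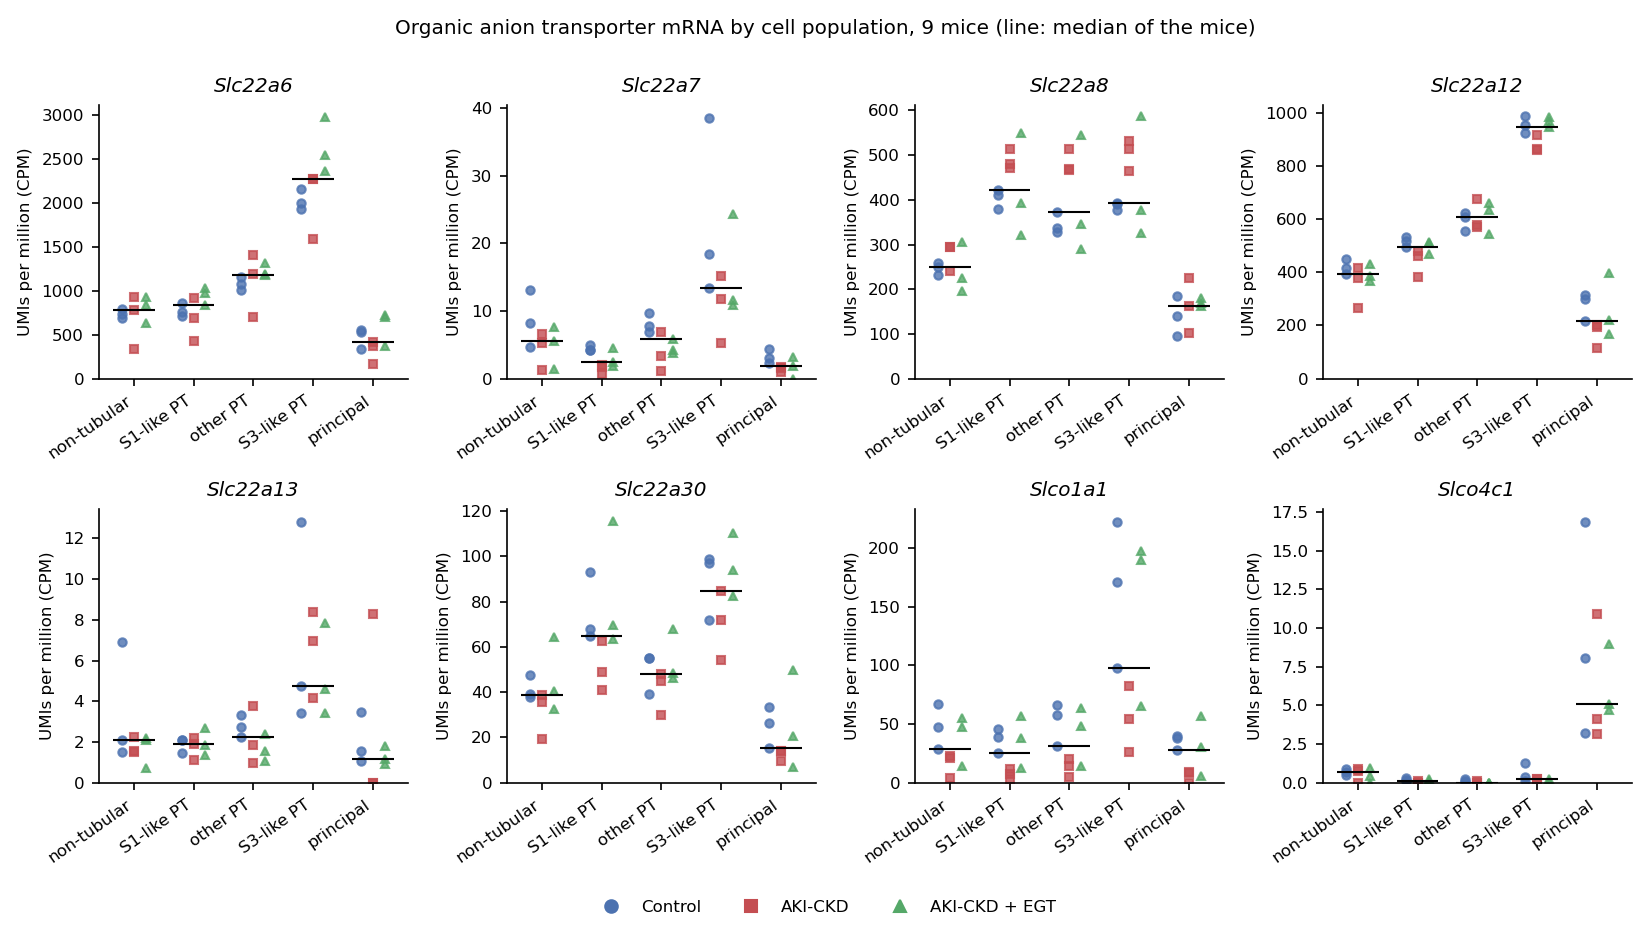
Level of each transporter in CPM (y axes, linear) in non-tubular cells, the PT populations and principal cells (x axes); each point is 1 mouse, coloured by group, and the line is the median of the 9 mice. Slc22a6, Slc22a7, Slc22a12 and Slco1a1 are highest in S3-like PT, Slc22a8 is level across the PT, and of the populations plotted Slco4c1 is highest in principal cells.

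Slco4c1 had 243 UMIs in all kept cells, and PT cells exceeded the non-tubular level in 2 of 9 mice. PT cells held 110 of them, or 0.179 CPM, against 0.592 CPM in non-tubular cells. In principal cells, the sodium-reabsorbing cells of the collecting duct, it was at 6.51 CPM, from 61 UMIs. It was 8.06, 3.24 and 16.9 CPM in the Control mice, 4.15, 3.14 and 10.9 CPM in the AKI-CKD mice and 4.70, 8.99 and 5.10 CPM in AKI-CKD + EGT mice, above the non-tubular level in 9 of 9 mice. After thinning to 1000 UMIs per cell, 0.807% of principal cells had a Slco4c1 UMI (exact 95% interval 0.5003% to 1.23%, unthinned 2.08%, median depth 2877 UMIs), against 0.0686% of non-tubular cells (0.0276% to 0.141%, unthinned 0.157%, median depth 2472 UMIs). Stromal cells gave 14 of the 21 Slco4c1 UMIs of the non-tubular cells (3.46 CPM), and 0.531% of them had a UMI after thinning (0.173% to 1.24%), an interval that overlaps with that of principal cells. These intervals cover counting error only.

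A small S3-like cluster of 185 cells, singled out after its values were seen, differed from S3-like PT in most of the transporters. All 10 of 10 S3 markers were raised in it, and its leading genes were Serpina1d, Serpina1f and Cyp7b1, with Slc22a13 and Slc22a7 among the first 10. Slc22a7 was at 359 CPM, Slc22a13 at 345 CPM and Slco4c1 at 57.3 CPM, above the non-tubular level of the same mouse in 8, 8 and 6 of 9 mice. Slc22a6 (425 CPM) and Slc22a8 (104 CPM) exceeded that level in 2 and 1 of 9 mice, and Slco1a1, with 21 UMIs in the cluster, in 5 of 9. Slc22a30 (94.1 CPM, against 86.0 CPM in S3-like PT) and Slc22a12 (758 CPM, against 927 CPM) were closer to S3-like PT. With 0.0939% of the kept cells, the cluster held 3.97% of all Slc22a7 UMIs, 9.02% of all Slc22a13 UMIs and 16.0% of all Slco4c1 UMIs. Thinned to 1000 UMIs, 26.5% of its cells had a Slc22a13 UMI (exact 95% interval 20.3% to 33.5%), against 0.613% of S3-like PT cells and 0.206% of non-tubular cells.

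The cluster was unevenly spread over the mice. It had 19, 21 and 79 cells in the Control mice, 12, 11 and 19 cells in the AKI-CKD mice and 8, 15 and 1 cells in the AKI-CKD + EGT mice. Control mouse 3 alone gave 79 of the 185 cells. AKI-CKD + EGT mouse 3 gave 1. Thin limb cells, the segment that follows the proximal tubule, were also singled out after their values were seen. Slc22a13 was there at 0, 8.63 and 8.33 CPM in the Control mice, at 60.9, 26.1 and 80.7 CPM (12, 6 and 33 UMIs) in the AKI-CKD mice and at 14.9, 3.25 and 0 CPM with EGT. Slco4c1 was at 0 CPM in all Control mice, at 20.3, 4.35 and 24.5 CPM (4, 1 and 10 UMIs) in the AKI-CKD mice and at 0, 1.63 and 3.32 CPM with EGT. The AKI-CKD mice were the highest for both genes, in few UMIs of 50, 53 and 88 cells, and no test was run.

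**Figure D3:**
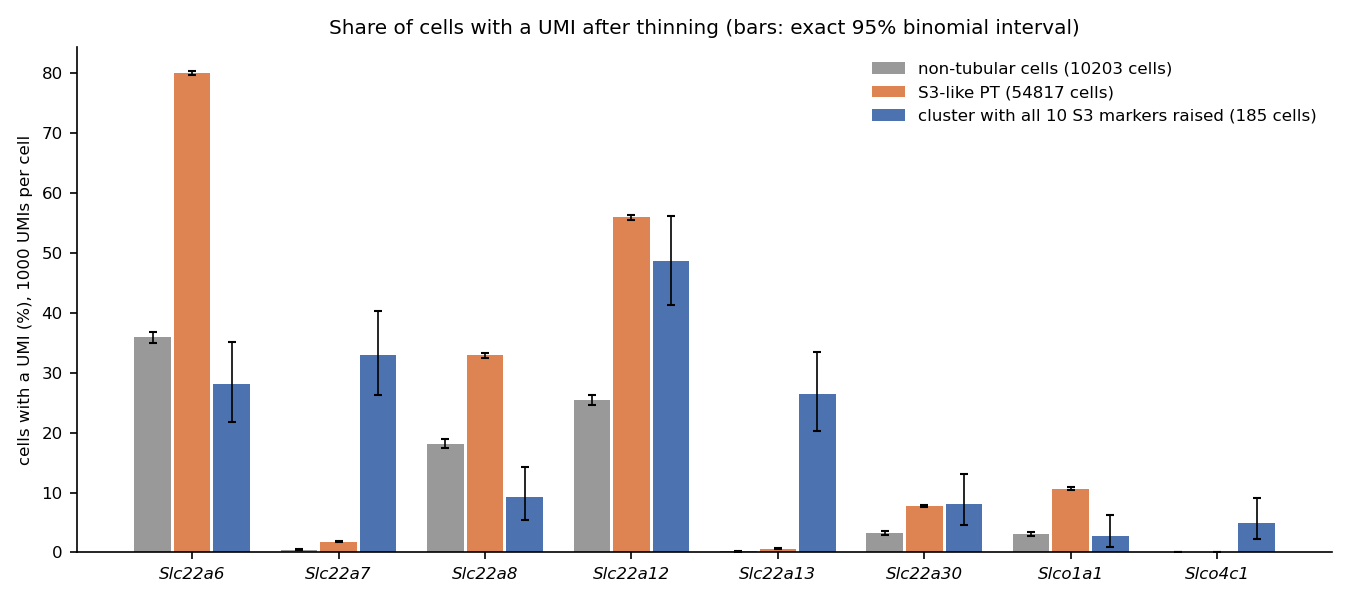
Share of cells with at least 1 UMI of each transporter (y axis, per cent) after every cell was thinned to 1000 UMIs, in non-tubular cells, S3-like PT and the small cluster; bars show exact 95% binomial intervals, which cover counting error only. The small cluster is at 33.0% for Slc22a7 and 26.5% for Slc22a13, and at 28.1% for Slc22a6 against 80.0% in S3-like PT.

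The genes most like each transporter were sought over 100 sums of PT clusters and mice among 5483 genes, by Pearson's r of log2 CPM, as a description, since the sums share libraries and depth. Slc22a6 was most like Ces1f, Degs2 and Cyp4b1 (r = 0.925, 0.914 and 0.905). Slc22a8 was most like Fam151a, Enpp6 and C2 (0.832, 0.827 and 0.825) and Slc22a12 like Ggt1, Slc22a2 and Proc (0.930, 0.906 and 0.904). Slc22a30 was most like Slc17a3, Atp11a and Slco1a6 (0.918, 0.914 and 0.900), Slco1a1 like Ly6e, Cd36 and Pzp (0.924, 0.896 and 0.895), Slc22a7 like Napsa, Cyp2a4 and Pigr (0.898, 0.892 and 0.875) and Slc22a13 like Ugt3a1, Slc6a13 and Cyp2j11 (0.833, 0.825 and 0.794). For Slco4c1, at background in PT cells outside the small cluster, the leading values were lower, with Crot, Cryab and Cyp51 at 0.633, 0.628 and 0.623. Only sums of at least 50 cells were used, which the small cluster reached in Control mouse 3 alone (79 cells). In that cluster Slc22a7, Slc22a13 and Slco4c1 were at 359, 345 and 57.3 CPM. In the PT clusters of at least 1000 cells they were at most at 23.6, 6.23 and 0.211 CPM. How far their r values rest on that 1 sum was not tested.

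In PT cells as a whole, none of the 8 genes passed the test between AKI-CKD and Control. The test was edgeR's quasi-likelihood F test on the UMIs summed per mouse, with Benjamini-Hochberg adjustment over 17910 genes, of which 8 passed an adjusted p of 0.05 (0.0447% of those tested). Slc22a7, Slco1a1 and Slco4c1 had an unadjusted p under 0.05, 3 of 8 genes, against 11% of all genes tested. In such sums, fewer cells of a kind and less RNA per cell cannot be told apart. In all kept cells none of the 8 passed either, where 0.0199% of genes did (0.00496% in AKI-CKD + EGT against AKI-CKD), and in S1-like and S3-like PT, where Slco4c1 had too few UMIs for the test, none of the other 7 passed, against 0.0428% and 0.0841% of genes.

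Slco1a1 had the lowest AKI-CKD levels relative to Control of the transporters other than Slco4c1. It was at 49.5, 93.4 and 123 CPM in the Control mice and at 38.6, 9.62 and 26.6 CPM in the AKI-CKD mice. The groups did not overlap, and Control mouse 1 and AKI-CKD mouse 1 were closest to each other. The log2 fold change was -1.77 ± 0.54 (SE, n = 3 per group), with a 95% interval of -2.97 to -0.57 and an adjusted p of 0.346 by edgeR. In S1-like PT it was -2.18 (adjusted p = 0.165 by edgeR) and in S3-like PT -1.56 (adjusted p = 0.287). With segments set per cell instead of by cluster, the S3-like value was -0.64. That rule called few PT cells S3-like, 4.87% in Control and 1.70% in AKI-CKD on average, so it describes another set of cells. With DESeq2 in place of edgeR, Slco1a1 in S1-like PT passed, at -2.20 with an adjusted p of 0.0380. In that fit 260 genes passed, against 7 of 16371 by edgeR. S1-like PT exceeded the non-tubular level of Slco1a1 in 1 of 9 mice. In non-tubular cells the Slco1a1 level differed in the same direction, at 28.5, 47.7 and 67.2 CPM in the Control mice, against 22.3, 4.18 and 20.7 CPM in those with AKI-CKD, with a log2 fold change of -1.63 ± 0.58. In these cells 6 of the 8 transporters had enough UMIs for the test and none of the 6 passed in either comparison, against 0% and 0.00697% of genes by edgeR. At an unadjusted p under 0.05 there were 1263 and 1221 genes. The ratio of the S3-like to the non-tubular level was 3.44 ± 0.14 (SD, n = 3) in Control and 4.22 ± 1.91 in AKI-CKD. Both levels in this ratio were lower on average in AKI-CKD, so the ratio alone does not show whether the S3-like level changed. Marker levels are given beside these values, with no test. The summed level of 10 S3 markers in PT cells was 935 to 2114 CPM in Control, 562 to 1184 CPM in AKI-CKD and 972 to 1408 CPM in AKI-CKD + EGT, and that of 11 injury markers was 235 to 406 CPM, 418 to 645 CPM and 375 to 702 CPM. In PT cells as a whole the S3 marker sums of the groups overlapped, and the injury marker sums did not overlap between Control and AKI-CKD. In S1-like PT the S3 marker sums were 576 to 1005 CPM in Control, 250 to 494 CPM in AKI-CKD and 500.3 to 834 CPM with EGT, so that AKI-CKD did not overlap with either other group. In non-tubular cells the S3 marker sums were 663 to 1230 CPM, 335.6 to 855.5 CPM and 525 to 906 CPM in the same order. The S1-like sums thus lay within or below the background ranges. Their part in the Slco1a1 levels was not tested.

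The other carriers, Slco4c1 apart, had smaller fold changes in PT cells than Slco1a1. Slc22a7 was at 7.78, 10.2 and 19.9 CPM PT cells in the Control mice, against 5.66, 2.01 and 7.94 CPM in those with AKI-CKD. These values overlapped, and the log2 fold change was -1.18 ± 0.52 (adjusted p = 0.446 by edgeR). With 1 mouse left out it ran from -1.67 (without AKI-CKD mouse 3) to -0.68 (without Control mouse 3). In S1-like PT, where it was at or below the non-tubular level in 8 of 9 mice, Slc22a7 passed with DESeq2, at -1.44 with an adjusted p of 0.0222. It was 1 of 260 genes that passed in that fit. Slc22a8 was at 376, 397 and 381 CPM in the Control mice, against 490, 486 and 495 CPM in those with AKI-CKD, without overlap and with little spread within either group. Its log2 fold change was 0.44 ± 0.23 (95% interval -0.07 to 0.94, adjusted p = 0.487 by edgeR). The fit used 1 estimate of the spread for all groups, and the AKI-CKD + EGT mice ranged from 318 to 561 CPM.

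Slc22a6, the main carrier of the S3-like cells, was at 1278, 1253 and 1363 CPM in the Control mice, against 1356, 791 and 1523 CPM in those with AKI-CKD. These values overlapped, with AKI-CKD mouse 2 below all others. The log2 fold change was 0.01 ± 0.24, with an interval of -0.52 to 0.53, and it was -0.085 with plain library sizes. Slc22a12 was at 694, 681 and 705 CPM in the Control mice, against 591, 603 and 663 CPM in those with AKI-CKD, without overlap. Its log2 fold change was -0.08 ± 0.14 (adjusted p = 0.854 by edgeR). The Slc22a30 values were 62.5, 76.7 and 86.1 CPM against 67.0, 42.0 and 57.3 CPM (-0.36 ± 0.20 on the log2 scale), and Slc22a13 was at 2.24 to 6.79 CPM against 1.87 to 4.71 CPM (-0.15 ± 0.44). Slco4c1 had at most 0.628 CPM in any mouse (-2.20 ± 0.87 on the log2 scale, adjusted p = 0.422 by edgeR). With 1 mouse left out that value ran from -3.32 (without AKI-CKD mouse 3) to -1.33 (without Control mouse 3), and PT cells were below the non-tubular level in 3 of 3 Control and 2 of 3 AKI-CKD mice. The groups did not overlap in 4 of 8 transporters (Slc22a8, Slc22a12, Slco1a1 and Slco4c1), against 19% of all genes tested. With CPM divided by the TMM factors, 3 of 8 did not overlap, since Slc22a12 then ran from 613 to 743 in AKI-CKD and from 654.5 to 725.8 in Control. The 19% is for plain CPM, and the share of all genes after that scaling is not given here, so the 3 of 8 has no share to be read against.

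**Figure D4:**
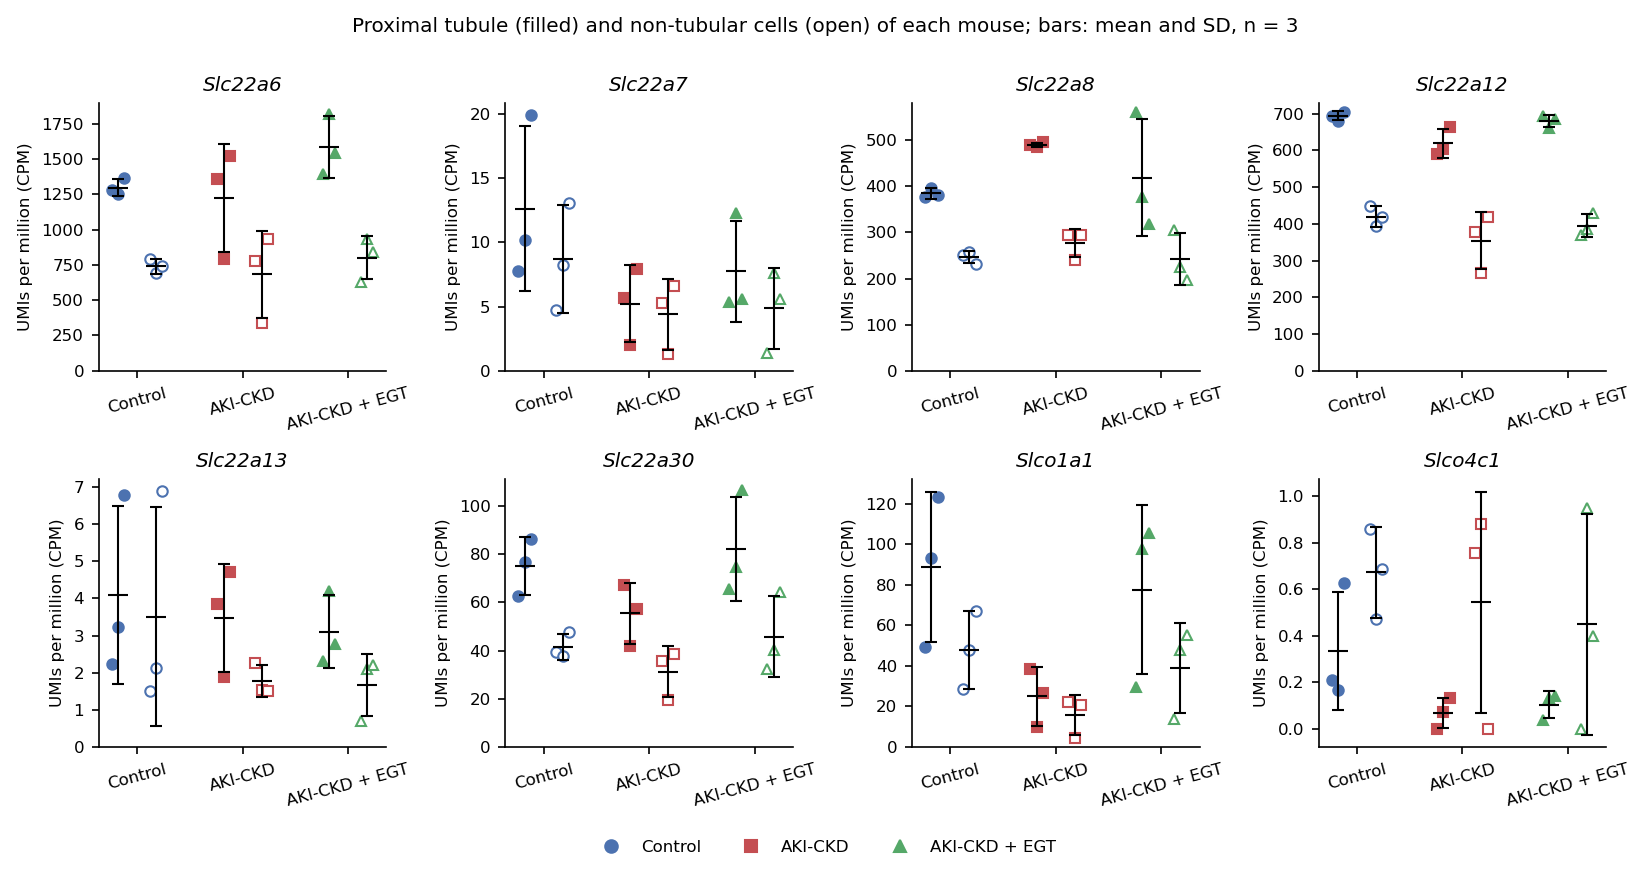
Levels in CPM (y axes) of each transporter in PT cells (filled) and non-tubular cells (open) of each mouse, by group (x axes); black bars are the mean and SD of 3 mice. Slco1a1 is at 9.62 to 38.6 CPM in AKI-CKD and at 49.5 to 123 CPM in Control PT cells, with open symbols in the same order of groups.

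AKI-CKD + EGT was compared with AKI-CKD in the same fit, so that both comparisons share the AKI-CKD mice. None of the 8 genes passed in PT cells, where 0 of 17910 genes did (0%) by edgeR, with 2709 genes (15.1%) at an unadjusted p under 0.05 and 444 passing with DESeq2. Of the 8 transporters, 1 (Slco1a1) had an unadjusted p under 0.05. The TMM scaling of this fit lowered every log2 fold change of this comparison in PT cells by about 0.22 against plain CPM, and raised those of AKI-CKD against Control by 0.087. Slco1a1 was at 29.5, 97.5 and 106 CPM in AKI-CKD + EGT. Its mice 2 and 3 were above all AKI-CKD mice and mouse 1 was within their range. Mouse 3 is the library that stood apart, and without it the log2 fold change was 1.20 (adjusted p = 0.654 by edgeR). With all mice the log2 fold change was 1.39 ± 0.54 (95% interval 0.20 to 2.57, adjusted p = 0.277 by edgeR). It was 2.03 ± 0.49 in S1-like PT (adjusted p = 0.195 by edgeR), 1.30 ± 0.45 in S3-like PT (adjusted p = 0.274) and 1.32 ± 0.58 in non-tubular cells. Segments set per cell gave 0.73 in S3-like PT, where that rule placed 1.70% of PT cells in AKI-CKD and 3.02% with EGT on average. Without AKI-CKD + EGT mouse 1, the value in S1-like PT was 2.45, with an adjusted p of 0.0301 by edgeR, and 154 genes passed there in place of 0. With DESeq2 and all mice it was 2.06, with an adjusted p of 0.0462, in a fit of S1-like PT in which 376 genes passed. S1-like PT exceeded the non-tubular level of Slco1a1 in 1 of 9 mice.

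Slc22a8 split the AKI-CKD + EGT mice, at 561 CPM in mouse 1 and 378 and 318 CPM in mice 2 and 3, around the AKI-CKD values of 486 to 495 CPM. The log2 fold change was -0.42 ± 0.23 (adjusted p = 0.403 by edgeR), and with 1 mouse left out it ran from -0.77 (without mouse 1, adjusted p = 0.0621 by edgeR) to -0.19 (without mouse 3, adjusted p = 0.830). Without mouse 1 it was -0.66 in S1-like PT (adjusted p = 0.0744 by edgeR) and -0.70 in S3-like PT (adjusted p = 0.0603). Slc22a6 was at 1392, 1820 and 1542 CPM in AKI-CKD + EGT, which overlapped with AKI-CKD, and its log2 fold change was 0.15 ± 0.24 (interval -0.38 to 0.68). Slc22a12 was at 694, 662 and 684 CPM, against 591, 603 and 663 CPM in AKI-CKD. Its log2 fold change was -0.08 ± 0.14 with TMM scaling and 0.14 with plain library sizes, so that its sign depended on the scaling. Slc22a7 was at 5.35, 12.3 and 5.58 CPM (0.35 ± 0.52) and Slc22a30 at 65.7, 74.5 and 107 CPM (0.33 ± 0.20). Slc22a13 was at 2.33, 4.21 and 2.77 CPM (-0.39 ± 0.45) and Slco4c1 at 0.0350, 0.131 and 0.142 CPM (0.33 ± 0.98). In all 8 genes the AKI-CKD + EGT and AKI-CKD values overlapped, while 24.8% of the genes tested did not.

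**Figure D5:**
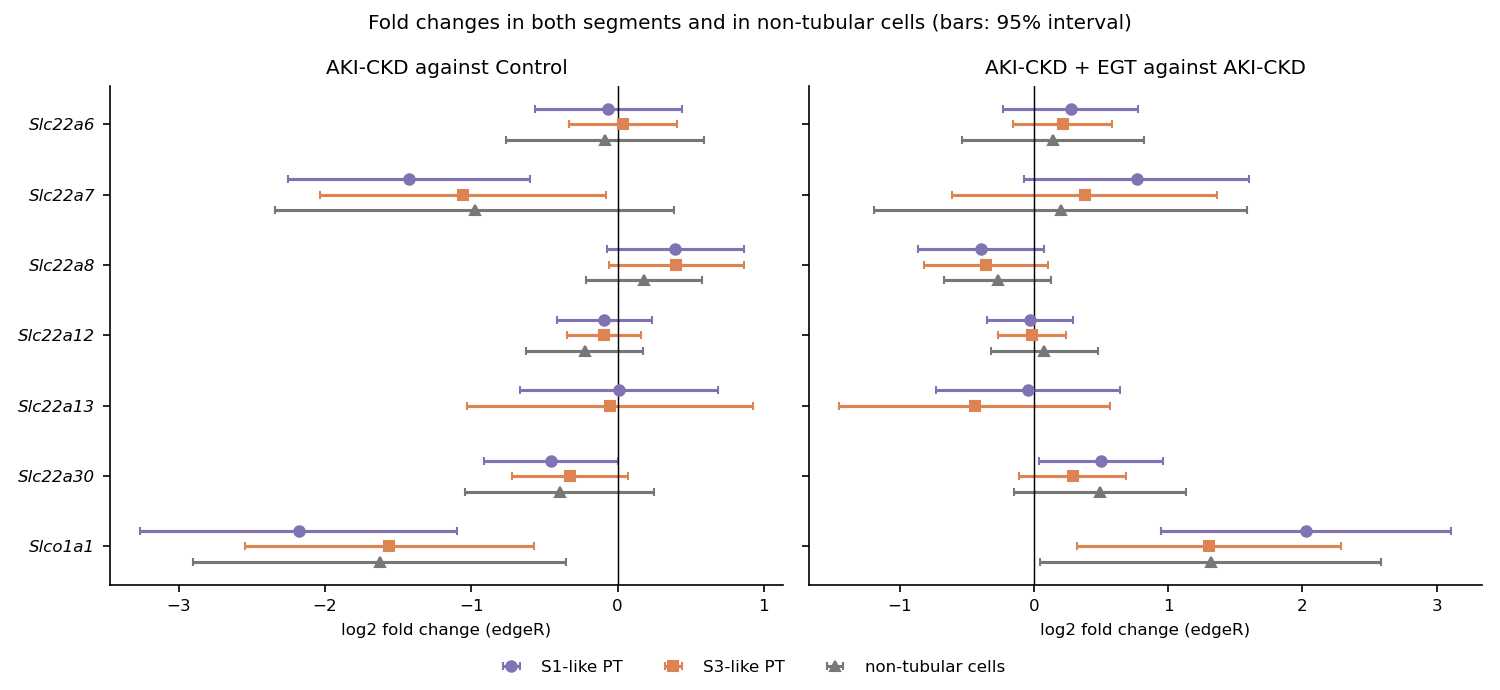
log2 fold changes (x axes) of 7 transporters (y axes), without Slco4c1, by edgeR in S1-like PT, S3-like PT and non-tubular cells for AKI-CKD against Control (left) and AKI-CKD + EGT against AKI-CKD (right); bars are 95% intervals, and Slc22a13 was too sparse for a fit in non-tubular cells. The non-tubular value of Slco1a1 is -1.63 on the left and 1.32 on the right, beside -1.56 and 1.30 in S3-like PT.

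Whether the group differences varied along the tubule was tested as an interaction of group and segment, with both segments of each mouse in a fit of 16609 genes. None of the 7 transporters tested (Slco4c1 was not) passed, and 4 genes (0.0241%) and 0 genes (0%) passed in the first and the second comparison by edgeR, with 925 and 903 at an unadjusted p under 0.05. For Slco1a1 the AKI-CKD against Control difference was 0.70 ± 0.14 higher on the log2 scale in S3-like than in S1-like PT (unadjusted p = 0.000163, adjusted p = 0.123 by edgeR), and the AKI-CKD + EGT against AKI-CKD difference was 0.74 lower (log2 value -0.74 ± 0.15, adjusted p = 0.180 by edgeR). The S1-like levels in these values were at background in 8 of 9 mice. The values of Slc22a8 were 0.04 ± 0.09 and -0.02 ± 0.09, with intervals of -0.14 to 0.23 and -0.20 to 0.17. S1-like cells made up 37.6% ± 4.69 (SD, n = 3) of the PT cells of Control mice, 41.0% ± 3.18 of those of AKI-CKD mice and 41.0% ± 2.96 with EGT, and S3-like cells 35.7% ± 3.29, 32.4% ± 4.64 and 32.7% ± 2.40. The exact permutation tests gave p = 0.5 for both segments in AKI-CKD against Control and p = 1.0 in AKI-CKD + EGT against AKI-CKD, two-sided, with a smallest possible p of 0.1.

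Further lists of related genes were read in PT cells, and no gene of them passed in either comparison by edgeR. Of 17 other organic anion transporter genes, 13 were tested, with a median log2 fold change of -0.21 in AKI-CKD against Control, beside -0.26 for the 8 transporters and -0.01 for all genes tested. The 13 values ran from -1.87 to 0.63. Of 14 partners of organic anion and urate transport, such as dicarboxylate carriers, efflux pumps and scaffold proteins, 13 were tested, with a median of -0.06. The 7 transcription factors tied to these genes had a median of 0.06.

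The 8 androgen-responsive kidney genes had a median of -0.29 in the same comparison. Their values ran from -2.32 to -0.04. The genes with the lowest values are also among the S3 markers, so this list and the S3 marker sums are not separate observations. With EGT, against AKI-CKD alone, the medians were 0.09 for the other organic anion transporters, -0.06 for the partners, -0.14 for the transcription factors, -0.02 for the androgen-responsive genes and 0.24 for the 8 transporters, beside -0.01 for all genes tested.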

How the data were processed

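Droplet single-cell RNA libraries (DNBelab C) of 9 mouse kidneys were analysed. The authors deposited matrices of raw UMI counts, genes by barcodes, made with PISA on GRCm39 per the submitters' processing notes. The aligner, annotation and cell calling rule are not given in the sources used here. The libraries held 70106161 to 101525691 UMIs. A barcode was kept from 1000 UMIs and 500 genes upwards if mitochondrial genes gave no more than 15% of its UMIs. No doublet caller was run. The 2000 most variable genes, without the 8 transporters, mitochondrial and ribosomal protein genes, gave 30 components, which were aligned across mice (Harmony method), joined over 20 neighbours and clustered (Leiden, igraph 0.11.9, resolution 1.1). Cell types were named from fixed marker lists with thresholds set after the clusters were seen: at least 3 markers at 2-fold (haemoglobin list 10-fold) and 20 CPM, and for PT and its segments at least 3 markers at 1.5-fold.

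UMIs were summed per mouse and population and tested with edgeR 4.0.16 (R 4.3.3), by the quasi-likelihood F test with TMM scaling, filterByExpr, all 9 mice in 1 fit and Benjamini-Hochberg adjustment over all genes tested. The standard error is the log2 fold change divided by the square root of F. DESeq2 1.42.0 was an alternative. The code was tested on simulated counts with known changes. Shares were compared with exact two-sided permutation tests, for which 3 mice against 3 cannot go below p = 0.1. Intervals of shares are exact binomial at 95% and cover counting error only. All 8 transporters were named in every comparison, genes of further lists only if they passed, and for likeness the 3 genes with the highest Pearson r of those with a mean log2 CPM of at least 4. The transporters and gene lists were chosen with earlier results of these data known. Promoters are from RefSeq, GRCm38.p6, which is not the build of the counts, and were matched by symbol. 1 gene of the further lists and 1 searched promoter sequence are not reported here.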

Additional observations from a re-analysis of the deposited data

How the results depend on the processing

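Of 303 transporter results under other settings than leaving out a mouse, 288 kept their direction and their side of the threshold, 3 crossed it and 12 took the other sign. Of 444 with 1 mouse left out, 394 did so, 1 crossed it and 49 took the other sign. The crossings were all in S1-like PT. With DESeq2, Slc22a7 (log2 fold change -1.44, adjusted p = 0.0222) and Slco1a1 (-2.20, adjusted p = 0.0380) passed in AKI-CKD against Control and Slco1a1 (2.06, adjusted p = 0.0462) in AKI-CKD + EGT against AKI-CKD. Slco1a1 also passed without AKI-CKD + EGT mouse 1. Its adjusted p ranged from 0.0380 to 0.549 and from 0.0301 to 0.585 over the alternatives of these comparisons.

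The count of genes that passed depended on the tool. For AKI-CKD (against Control) and for EGT (against AKI-CKD alone), DESeq2 passed 204 and 444 genes in PT, 260 and 376 in S1-like PT, 169 and 271 in S3-like PT and 129 and 254 in all kept cells. Without a filter on low counts 87 and 215 passed in PT, and with plain library sizes 5 passed in AKI-CKD against Control. With segments set per cell, a rule that called 93.6% to 97.5% of PT cells S1-like on group average, 5 passed in S3-like PT in that comparison. The causes were not tested. The correlation of same-numbered mice was -0.45 to 0.33, over 0.1 in 1 of 9 pairs, and 1 of 9 mice correlated best with its own number. With so few mice per group these values cannot show whether same-numbered mice were handled together. The labels give only the numbers. With the replicate block, AKI-CKD against Control had 0 genes in PT, 3 in S1-like PT, 1 in S3-like PT and 0 in all kept cells, and AKI-CKD + EGT against AKI-CKD had 0 in all kept cells; it changed no call of a transporter.

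With 1 mouse left out, AKI-CKD against Control had 0 to 9 genes in PT, 0 to 9 in S1-like PT, 1 to 27 in S3-like PT, 0 to 11 in all kept cells and 0 to 14 in the test between segments. The highest counts in the last 3 came without Control mouse 1, and counts of 0 came in PT without Control mouse 2, in S1-like PT without Control mouse 3 or either of AKI-CKD mice 2 and 3, in all kept cells without Control mice 2 or 3 or AKI-CKD mice 2 or 3, and between segments without AKI-CKD mouse 2. AKI-CKD + EGT against AKI-CKD had 0 to 208 genes in PT, 0 to 154 in S1-like PT, 0 to 46 in S3-like PT, 0 to 1 in all kept cells (0 without AKI-CKD mice 1 or 3 or any mouse given EGT) and 0 to 2 between segments, and the highest in PT, both segments and between segments came without AKI-CKD + EGT mouse 1. Differences in the share of S1-like and S3-like cells in AKI-CKD + EGT against AKI-CKD ranged from -1.79 to 1.37 and from -2.14 to 2.48 percentage points, and the S1-like difference was -1.69 with segments per cell.

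Some transporter values took the other sign. For Slc22a6 in PT, AKI-CKD against Control, they were -0.085 with plain library sizes, -0.017 with only the 6 mice compared, -0.0079 with the replicate block and -0.0015 with no mitochondrial limit. Slc22a12 was at 0.14 in PT, AKI-CKD + EGT against AKI-CKD, with plain library sizes. With segments per cell, AKI-CKD against Control gave 0.019 for Slc22a6 in S1-like PT and 0.14, 0.18 and 0.88 for Slc22a7, Slc22a12 and Slc22a13 in S3-like PT, and AKI-CKD + EGT against AKI-CKD gave -0.52 for Slc22a7 in S3-like PT. Slc22a13 in S3-like PT was at 0.052 with the replicate block and at 0.11 without the small cluster. With 1 mouse left out, log2 fold changes that took both signs had these ranges. For AKI-CKD against Control in PT they were -0.22 to 0.25 for Slc22a6 and -0.47 to 0.44 for Slc22a13. For AKI-CKD + EGT against AKI-CKD in PT they were -0.29 to 1.45 for Slco4c1, -0.10 to 0.38 for Slc22a6 and -0.20 to 0.83 for Slc22a7. For AKI-CKD against Control in S1-like PT they were -0.17 to 0.23 for Slc22a13, -0.36 to 0.17 for Slc22a6 and -0.16 to 0.036 for Slc22a12. For AKI-CKD + EGT against AKI-CKD in S1-like PT they were -0.27 to 0.16 for Slc22a13 and -0.16 to 0.045 for Slc22a12. For AKI-CKD against Control in S3-like PT they were -0.35 to 0.67 for Slc22a13 and -0.042 to 0.22 for Slc22a6. For AKI-CKD + EGT against AKI-CKD in S3-like PT they were -0.13 to 0.70 for Slc22a7 and -0.072 to 0.023 for Slc22a12. For AKI-CKD against Control in all kept cells they were -0.29 to 0.29 for Slc22a6 and -0.49 to 0.51 for Slc22a13. For AKI-CKD + EGT against AKI-CKD in all kept cells they were -0.24 to 0.34 for Slc22a6, -0.34 to 0.80 for Slc22a7, -0.24 to 0.0028 for Slc22a12 and -0.025 to 0.83 for Slco4c1. For AKI-CKD against Control (S3-like against S1-like PT) they were -0.20 to 0.62 for Slc22a13, -0.024 to 0.12 for Slc22a8 and -0.063 to 0.10 for Slc22a12. For AKI-CKD + EGT against AKI-CKD (S3-like against S1-like PT) they were -0.092 to 0.042 for Slc22a8, -0.10 to 0.072 for Slc22a12 and -0.87 to 0.047 for Slc22a13.

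Leaving out mice in all kept cells, between segments and for shares, DESeq2 in all kept cells, the fits without the small cluster, the fit in non-tubular cells and the overlap of groups after TMM scaling were chosen after seeing the data. Slco4c1, with 110 UMIs in PT cells, could not be tested within the segments at this depth.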
